A study of Drosophila melanogaster with 15 samples.

Results

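The 10 genes described here encode replication-independent histones and histone chaperones of *Drosophila melanogaster*. They are the histone genes *His3.3A*, *His3.3B*, *His4r* and *BigH1* and the chaperone genes *asf1*, *Hira*, *Nap1*, *Ssrp*, *dre4* and *Spt6*. They were chosen by name as a functional group. The rule holds no value of these data, but earlier results of these data were known. The group is 10 of the 17481 genes in the count tables. All 10 passed the filter on low counts, which left 11424 genes.

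Replicative histones are made in S phase from a gene cluster whose mRNAs lack a poly(A) tail, whereas replacement histones are made throughout the cell cycle from separate genes with polyadenylated mRNAs. Histone chaperones bind free histones and hand them to DNA or to other chaperones, and several of them take nucleosomes apart and rebuild them as RNA polymerase II passes. H2A.V is the only H2A variant of flies, combines features of H2A.Z and H2A.X, and is placed in chromatin by remodelers of the SWR1 type. The gene *dom* encodes the DOMINO remodeler in the isoforms DOM-A and DOM-B, which belong to separate complexes, and the acetyltransferase TIP60 is in that of DOM-A.

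RNA-seq was performed in Kc167, an embryonic *Drosophila* cell line related to blood cells, after RNAi with double-stranded RNA. There were 15 libraries in 5 groups of 3 replicates: H2A.V RNAi, DOM-A RNAi, DOM-B RNAi, TIP60 RNAi and the control, CTRL. CTRL cells were treated with GST double-stranded RNA in replicates 1 and 3 but with GFP double-stranded RNA in replicate 2, so which control was used cannot be told apart from the replicate. *D. virilis* cells were added to every group at a fixed ratio to the Kc167 cells before RNA extraction, and poly(A) RNA was sequenced. All values named normalized counts are reads on the transcribed strand divided by a library factor derived from the *D. virilis* genes, so that they scale with mRNA per cell number rather than with the share of the library. In such bulk samples, fewer cells expressing a gene and less mRNA per cell cannot be told apart.

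Libraries held 8662976 to 14679536 *D. melanogaster* gene counts (median 12642096) and 1766397 to 3037203 *D. virilis* gene counts. *His2Av*, the target of H2A.V RNAi, had 224, 1958 and 277 normalized counts after H2A.V RNAi, against 11464, 12354 and 10448 in CTRL, and replicate 2 retained 15.8% of its CTRL value, against 1.96% and 2.65% in replicates 1 and 3. *His2Av* also lay below all CTRL libraries after DOM-A RNAi (7556, 7290 and 7354) and TIP60 RNAi (7776, 6703 and 7868). In these 2 comparisons 39.5% and 38.2% of all genes lay wholly above or below CTRL. The log2 fold-changes of -0.61 and -0.58 were not called (SE 0.483 each, edgeR adjusted p = 0.369 and 0.423). That SE rests on a spread shared by all groups, the unequal H2A.V libraries included. *Tip60* retained 13.3 to 17.6% after TIP60 RNAi. The DOM isoforms share the gene *dom*, so the gene-level counts do not check DOM-A or DOM-B RNAi. With the *D. virilis* factors the log2 fold-change against CTRL had a median over all genes of -0.22 for H2A.V RNAi, 0.03 for DOM-A RNAi, 0.06 for DOM-B RNAi and -0.04 for TIP60 RNAi. For H2A.V RNAi it was 0.02 when the factors came from the *D. melanogaster* genes by TMM, -0.20 with TMM on the *D. virilis* genes, and -0.02 with total *D. virilis* counts, so the shift depended on how the *D. virilis* genes were used. As a check of the cell type, all 8 blood cell genes examined were detected in every group. So were all germline, neuron and muscle genes examined, so detection alone does not identify the cell type. The fat body genes were nearly absent, with 0 to 2 reads per library for *Lsp2*, 0 to 3 for *Fbp1* and 0 to 1 for *Yp1*. Of the genes of male dosage compensation, *roX1* had 1 to 14 reads, *roX2* 0 to 11 and *msl-2* 103 to 198. Mean normalized counts in CTRL were 53.3 (*NimC1*) to 13951 (*Hml*) for blood cell genes and 5.84 (*vas*) to 2625 (*aub*) for germline genes. They were 11.4 (*nSyb*) to 654 (*brp*) for neuron genes and 3.49 (*up*) to 71.0 (*Act88F*) for muscle genes. The summed normalized count of the 8 blood cell genes was 86749 to 99914 after DOM-A RNAi, 32149 to 96014 after TIP60 RNAi, 46534 to 58047 after DOM-B RNAi and 17579.6 to 38394 after H2A.V RNAi, against 23849 to 29180.1 in CTRL.

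In CTRL cells the 10 genes lay between the percentiles 18.1 (*BigH1*) and 99.0 (*His3.3B*) of the levels of 11327 genes. On the scale of normalized counts per kb of exon, *His3.3B* had the highest level with 9900 ± 1617 (SD, n = 3), followed by *His4r* with 7288 ± 1661, and the spreads of these neighbours overlapped. *His3.3A* at 3124 ± 775 and *Nap1* at 2784 ± 150 also overlapped. The next levels per kb were 1818 ± 224 for *dre4*, 1172 ± 141 for *Ssrp* and 1035 ± 90.7 for *asf1*. The pair *Ssrp* and *asf1* lay within their SDs of each other. *Spt6* had 249.8 ± 6.32 and *Hira* 173 ± 14.9 normalized counts per kb, whereas *BigH1* had 1.55 ± 1.19. *BigH1* was covered by 0 to 13 reads per library, and each of the other 9 genes by 402 reads or more.

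**Figure D1:**
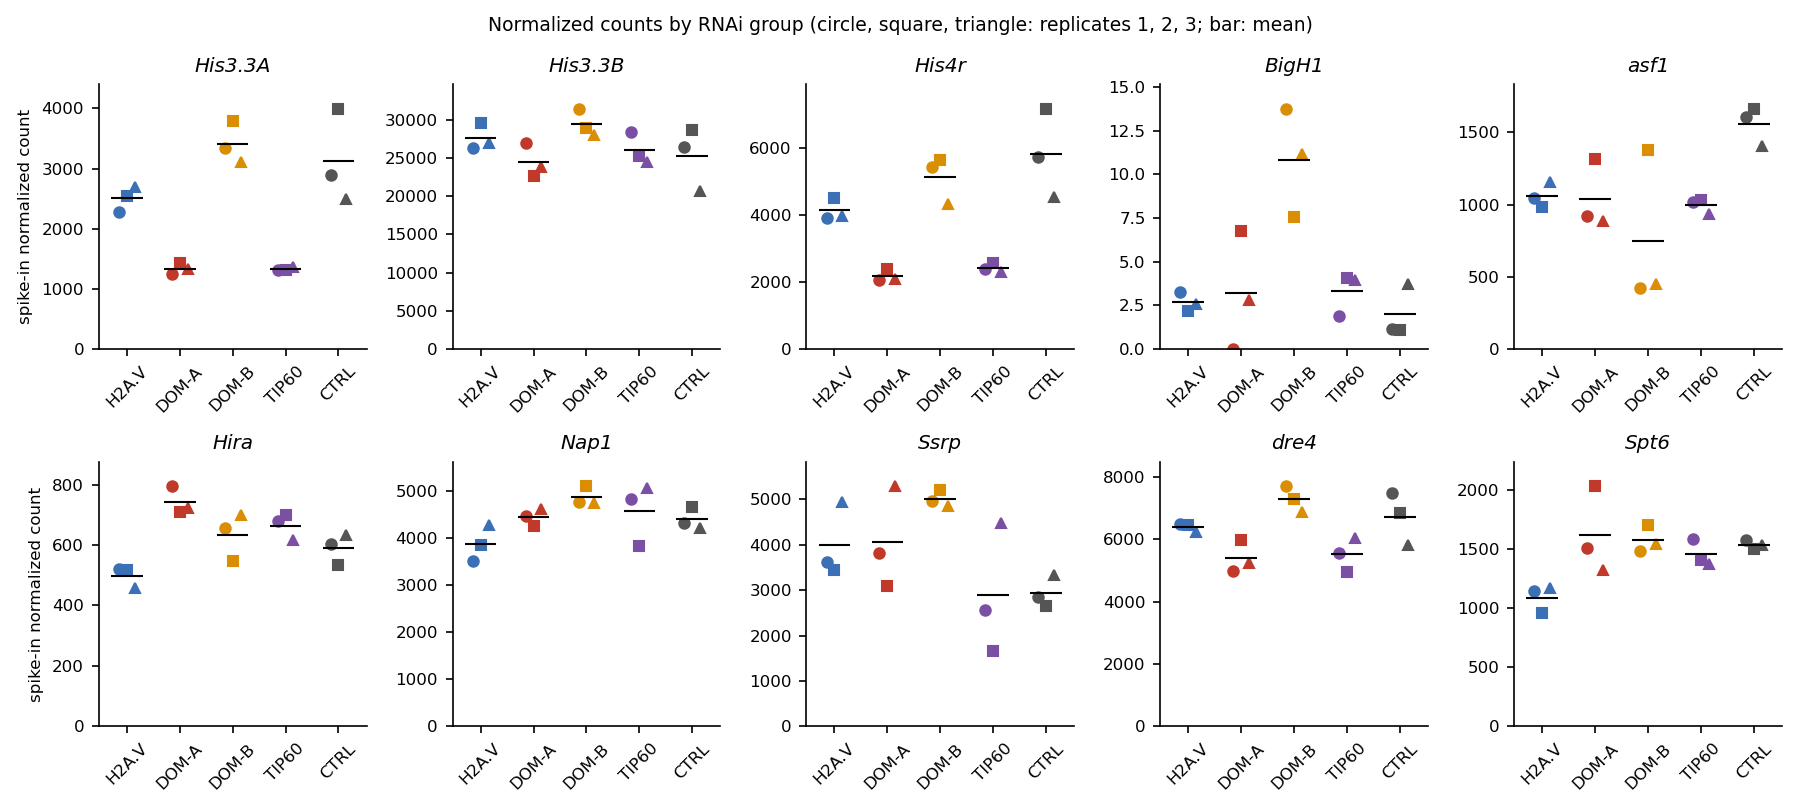
Normalized counts (y axes, linear, from 0) of the 10 genes in every library by RNAi group (x axes); symbols mark replicates 1 to 3 and bars the mean of 3. *His3.3A* and *His4r* were low after DOM-A and TIP60 RNAi, and *asf1* lay below all 3 CTRL libraries in all 12 knock-down libraries. How many of all genes did so was not counted.

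His3.3A and His3.3B encode histone H3.3, the replacement H3 that is deposited outside S phase. The genes responded differently. *His3.3A* (FBgn0014857, chromosome 2L, 5055058 to 5056149, plus strand, dm6) had 1242, 1433 and 1330.1 normalized counts after DOM-A RNAi and 1308, 1318 and 1362 after TIP60 RNAi, against 2893, 3997 and 2500.3 in CTRL. All 6 of these knock-down libraries were below all 3 CTRL libraries. By the quasi-likelihood test of edgeR, adjusted after Benjamini and Hochberg, *His3.3A* fell by 1.22 on the log2 scale after DOM-A RNAi (SE 0.135, adjusted p = 2.5e-05) and by 1.22 after TIP60 RNAi (SE 0.135, adjusted p = 4.12e-05), to 0.427 and 0.425 of the CTRL mean.

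*His3.3A* had 3349, 3785 and 3112 normalized counts after DOM-B RNAi and 2272, 2546 and 2689 after H2A.V RNAi, and both groups overlapped CTRL. Its log2 fold-change was 0.14 after DOM-B RNAi (95% interval -0.15 to 0.42, adjusted p = 0.551) and -0.31 after H2A.V RNAi (95% interval -0.59 to -0.02, adjusted p = 0.108). The direct comparisons gave 0.91 for H2A.V RNAi against DOM-A RNAi (adjusted p = 1.28e-04) and 0.91 for H2A.V RNAi against TIP60 RNAi (adjusted p = 1.81e-04). DOM-A RNAi was lower than DOM-B RNAi by a log2 difference of -1.35 (adjusted p = 1.68e-05), and TIP60 RNAi was lower than DOM-B RNAi by -1.35 (adjusted p = 2.33e-05). DOM-A RNAi against TIP60 RNAi gave a log2 difference of 0.000386 (95% interval -0.29 to 0.29).

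*His3.3B* (FBgn0004828, chromosome X, 9152523 to 9156669, minus strand) did not pass the threshold in any of the 10 comparisons. Its normalized counts were 26881, 22668 and 23801 after DOM-A RNAi and 28386, 25197 and 24466 after TIP60 RNAi, against 26481, 28644 and 20667 in CTRL, and the groups overlapped. The log2 fold-change was -0.04 after DOM-A RNAi (95% interval -0.31 to 0.23) and 0.05 after TIP60 RNAi (95% interval -0.22 to 0.32). Its direction after both knock-downs depended on the scaling, with a range over the alternatives of -0.14 to 0.02 for DOM-A RNAi and -0.10 to 0.16 for TIP60 RNAi. After DOM-B RNAi it had 31453, 28922 and 27979.6 normalized counts (log2 fold-change 0.23, adjusted p = 0.262).

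The ratio of *His3.3B* to *His3.3A* reads within a library does not depend on the library factors. It was 21.6, 15.8 and 17.9 after DOM-A RNAi and 21.7, 19.1 and 18.0 after TIP60 RNAi, against 9.15, 7.17 and 8.27 in CTRL. It was 11.6, 11.6 and 10.02 after H2A.V RNAi and 9.39, 7.64 and 8.99 after DOM-B RNAi. The ratios of the DOM-A, TIP60 and H2A.V RNAi libraries all lay above those of CTRL, whereas those of DOM-B RNAi overlapped CTRL.

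On the log2 scale the ratio was higher by 1.17 after DOM-A RNAi, by 1.26 after TIP60 RNAi and by 0.44 after H2A.V RNAi, and by 0.08 after DOM-B RNAi. The two-sided exact permutation test gave p = 0.1 for DOM-A, TIP60 and H2A.V RNAi, the smallest value that 3 against 3 libraries allow, and p = 0.6 for DOM-B RNAi. After adjustment over the 8 ratio tests, all from this permutation test, p was 0.2, 0.2, 0.2 and 0.686. *His3.3A* reads were 4.42 to 5.95% of all H3.3 reads after DOM-A RNAi and 4.41 to 5.27% after TIP60 RNAi, against 9.85 to 12.2% in CTRL. The summed normalized count of both genes was 24102 to 28122 after DOM-A RNAi and 25828 to 29695 after TIP60 RNAi, against 23167 to 32642 in CTRL, so the sums overlapped. This sum was added after the data had been seen. The share and the sum count reads without regard to exon length, 2552 nt for *His3.3B* and 1002 nt for *His3.3A*, so *His3.3B* weighs more in both. Per kb of exon, mean normalized counts of *His3.3A* and *His3.3B* were 3124 and 9900 in CTRL. They were 1332 and 9581 after DOM-A RNAi, and 1327 and 10195 after TIP60 RNAi. Whether total H3.3 mRNA changed was not tested.

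**Figure D2:**
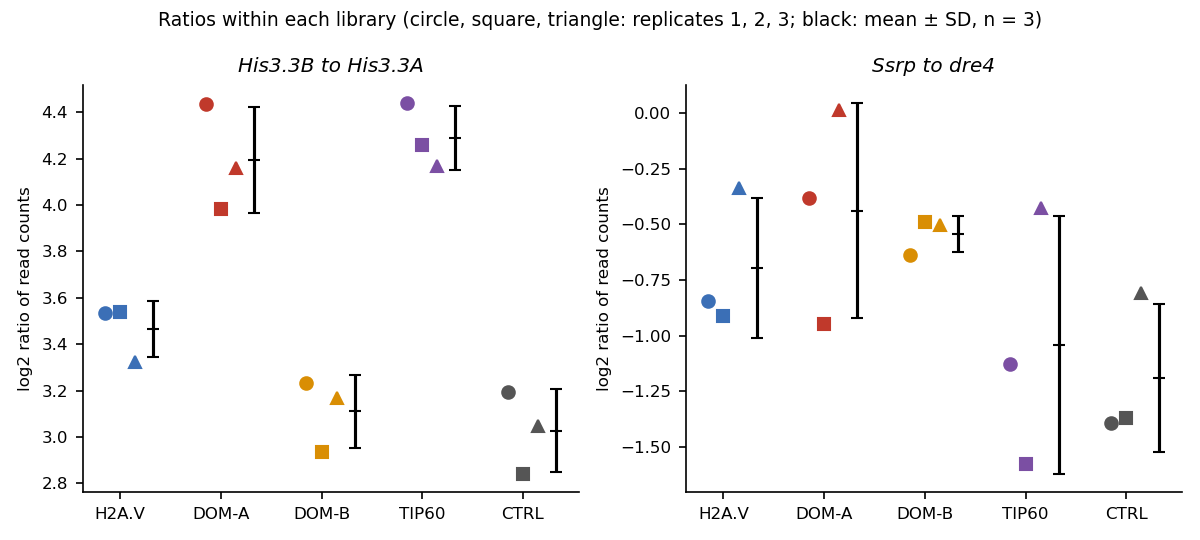
Log2 ratio of reads of *His3.3B* to *His3.3A* (left) and of *Ssrp* to *dre4* (right) in every library (y axes) by RNAi group (x axes); symbols mark replicates and black bars the mean ± SD of 3. The *His3.3B* to *His3.3A* ratio was higher than in all CTRL libraries after H2A.V, DOM-A and TIP60 RNAi.

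*His4r* (FBgn0013981, chromosome 3R, 14625755 to 14626614, plus strand) encodes histone H4 outside the replicative cluster. It had 2066, 2392 and 2075 normalized counts after DOM-A RNAi and 2372, 2557 and 2285 after TIP60 RNAi, against 5724, 7161 and 4519 in CTRL. The groups did not overlap. It fell by 1.40 on the log2 scale after DOM-A RNAi (SE 0.120, adjusted p = 3.47e-06) and by 1.25 after TIP60 RNAi (SE 0.119, adjusted p = 1.35e-05).

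After H2A.V RNAi *His4r* had 3907, 4509.9 and 3969 normalized counts, and its highest library lay just below the lowest CTRL library. It fell by 0.47 on the log2 scale (SE 0.117, adjusted p = 0.00981), which is at the edge of the threshold of 0.01. The median of all genes in this comparison was -0.22, and relative to it the change of *His4r* was -0.25. It passed the threshold in 2 of 10 alternative settings (adjusted p 4.41e-04 to 0.335) and in 2 of 6 fits that each left out a library. The call was lost without CTRL replicate 1 or 2 (adjusted p = 0.0402 and 0.0631), without H2A.V replicate 1 or 2 (0.0545 and 0.0421), and without the replicate block (0.0472). After DOM-B RNAi it had 5417, 5629.7 and 4325 normalized counts, overlapping CTRL (log2 fold-change -0.17, adjusted p = 0.384).

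*His4r* was lower after DOM-A RNAi than after DOM-B RNAi by a log2 difference of -1.23 (adjusted p = 1.37e-05), and lower after TIP60 RNAi than after DOM-B RNAi by -1.08 (adjusted p = 4.44e-05). It was higher after H2A.V RNAi than after DOM-A RNAi by 0.92 (adjusted p = 4.63e-05) and than after TIP60 RNAi by 0.78 (adjusted p = 2.23e-04). The changes of *His3.3A* and *His4r* after DOM-A and TIP60 RNAi passed the threshold in 10 of 10 alternatives and in 6 of 6 fits without a library each. All 4 comparisons against CTRL used the same 3 CTRL libraries.

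After DOM-A RNAi 2 of the 10 genes were called at the adjusted p of 0.01, and after TIP60 RNAi 2 of 10, *His3.3A* and *His4r* in both, all lower. Among all genes 19.4% were called after DOM-A RNAi and 13.3% after TIP60 RNAi, 10.4% and 8.43% as lower. The counts were therefore near the background share. Without replicate 2 of every group 4 were called after DOM-A RNAi, with *asf1* lower and *Ssrp* higher besides, and 3 after TIP60 RNAi, with *asf1* lower besides, against 26.7% and 19.3% of all genes in that fit. Blood cell genes moved with these knock-downs. Of the 8 examined, 6 were higher after DOM-A RNAi and 5 after TIP60 RNAi, against 8.96% and 4.88% of all genes, among them *Hml*, a plasmatocyte gene, with log2 fold-changes of 1.75 and 1.22. The rise was not limited to DOM-A and TIP60 RNAi. Over the 8 genes the median log2 change was 2.03 (DOM-A), 1.92 (TIP60), 1.01 (DOM-B) and -0.22 (H2A.V). In the DOM-B comparison none of the 8 was called, and the median of all genes was 0.06. *His3.3A* and *His4r* overlapped CTRL in that knock-down. The part of the blood cell genes in the fall of *His3.3A* and *His4r* was not tested. DOM-A and TIP60 RNAi set against each other had none of the 10 genes called by edgeR, 1 with an unadjusted p under 0.05, *Ssrp*, and 0 called by DESeq2. Among all genes 0.0175% were called by edgeR in that comparison, 13.1% had an unadjusted p under 0.05, and 0.508% were called by DESeq2.

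**Figure D3:**
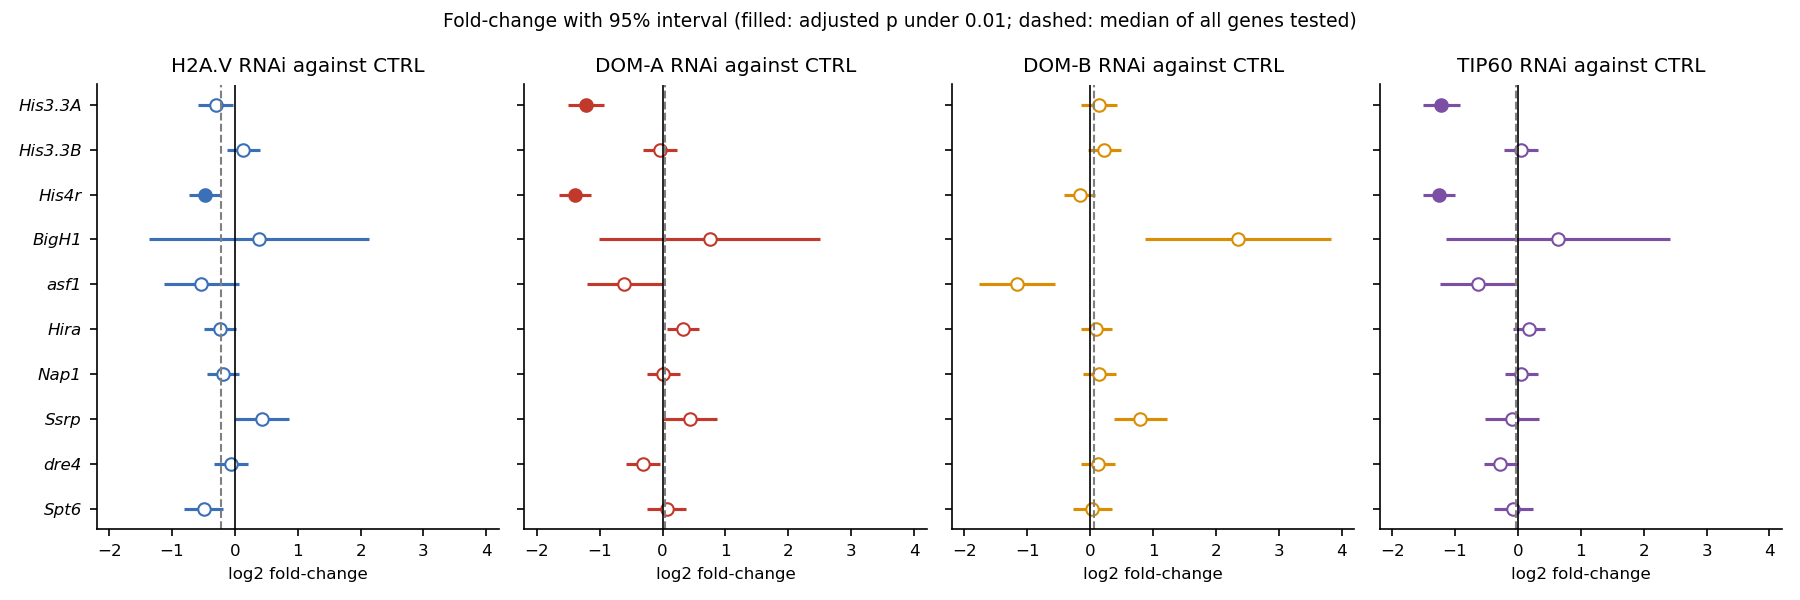
Log2 fold-change (x axes) with 95% interval of the 10 genes (rows) after each RNAi against CTRL; filled points have an adjusted p under 0.01 and dashed lines mark the median of all genes tested. *His3.3A* and *His4r* fell after DOM-A and TIP60 RNAi, while *His3.3B* stayed near 0 in both.

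H2A.V RNAi was examined for a rise of other histones or chaperones when this variant was depleted. None of the 10 genes was called higher and 1 was called lower, *His4r*, against 1.23% higher and 11.5% lower of all genes, 12.7% in all. The 10 genes had a median log2 fold-change of -0.21, against -0.22 for the genes tested. For *His3.3B*, 26312, 29578 and 26936 normalized counts after H2A.V RNAi lay within or just above the CTRL range, and the 95% interval of the fold reached from 0.912 to 1.32. For *Nap1* the interval was 0.733 to 1.05, for *dre4* 0.794 to 1.15 and for *Hira* 0.710 to 1.01.

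The highest change after H2A.V RNAi among the well-covered genes was that of *Ssrp*. It had 3619, 3440.4 and 4947 normalized counts, against 2843, 2644 and 3331 in CTRL, all 3 above CTRL. The log2 fold-change of 0.43 did not pass the threshold (95% interval 0.0048 to 0.85, adjusted p = 0.131). It was 0.68 (adjusted p = 0.021) with the TMM factors of the *D. melanogaster* genes, and was not called in any of 10 alternatives, whose adjusted p ranged from 0.0149 to 0.309. With the same factors *His3.3B* was at 0.39 (adjusted p = 0.0565, range over its alternatives 0.0394 to 0.615), and the signs of *Hira*, *Nap1* and *dre4* turned from negative to positive, at 0.02, 0.06 and 0.19.

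**Figure D4:**
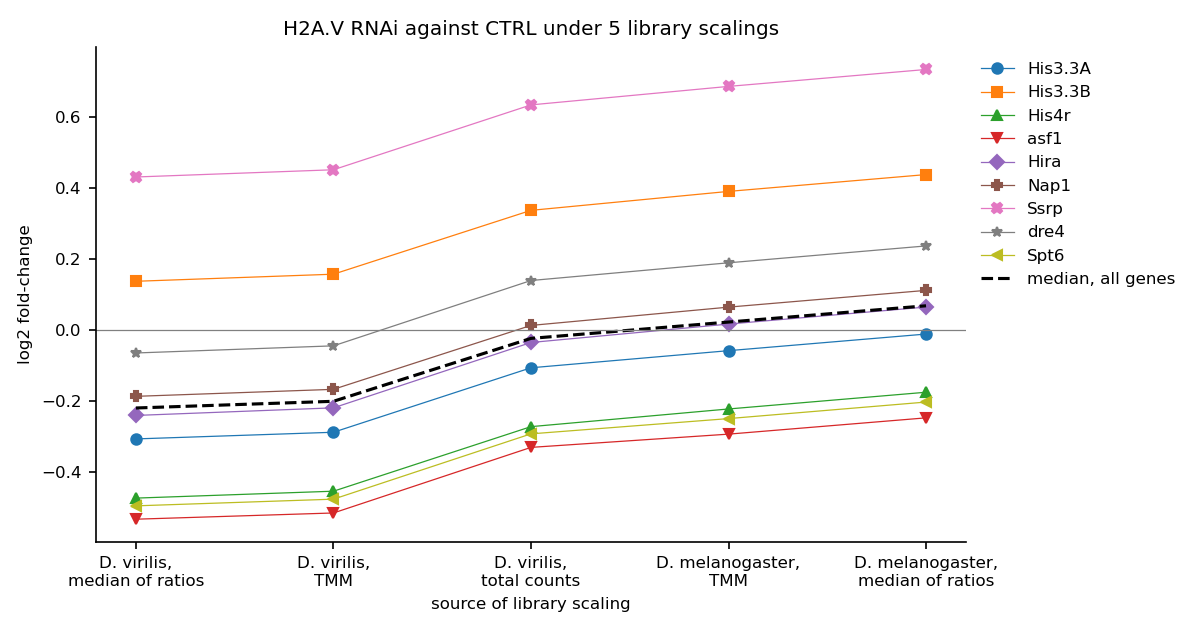
Log2 fold-change after H2A.V RNAi against CTRL (y axis) of 9 genes under 5 ways to scale the libraries (x axis); the dashed line is the median of all genes, and *BigH1* is left out for its low counts. The genes keep their order while all shift with the median, and none was called higher under any scaling.

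Among the H3 and H4 chaperones, *asf1* (FBgn0029094, chromosome 3L, 19618894 to 19620398, plus strand) encodes the chaperone that receives H3 with H4 and passes them on to HIRA or CAF-1. It was, of these 10 genes, the only gene with all 12 knock-down libraries below the lowest CTRL library. How many of all genes had this pattern was not counted. In the single comparisons, 35.6% (H2A.V), 39.5% (DOM-A), 29.6% (DOM-B) and 38.2% (TIP60) of all genes lay wholly above or below CTRL. Each comparison used the same CTRL libraries. *asf1* had 1043, 983 and 1154 normalized counts after H2A.V RNAi and 918, 1318 and 887 after DOM-A RNAi, against 1604, 1665 and 1404 in CTRL. After DOM-B RNAi it had 425, 1376 and 449 normalized counts, and after TIP60 RNAi 1015, 1033 and 934. The DOM-B libraries split, with replicates 1 and 3 below every other library and replicate 2 just below CTRL.

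The log2 fold-change of *asf1* against CTRL was -0.53 for H2A.V RNAi, -0.61 for DOM-A RNAi, -1.17 for DOM-B RNAi and -0.64 for TIP60 RNAi, with adjusted p = 0.179, 0.109, 0.0154 and 0.109. None passed the threshold in the fit of all 15 libraries. Without replicate 2 of every group, an alternative added after the data had been seen, the log2 fold-changes were -0.45, -0.74, -1.78 and -0.62 with adjusted p = 0.00791, 6.96e-05, 1.3e-08 and 4.86e-04. With only the pair of groups compared in the fit, they were -0.55, -0.60, -1.26 and -0.65 with adjusted p = 0.00344, 0.00503, 4.39e-05 and 0.00114. Over its alternatives the adjusted p ranged from 0.00344 to 0.530, 0.00503 to 0.213, 4.39e-05 to 0.0720 and 0.00114 to 0.195 in the same order. Leaving out only DOM-B replicate 2 gave -1.78 for DOM-B RNAi against CTRL (adjusted p = 5.52e-05). The fit of all libraries estimates a single spread for *asf1* over all groups, the split DOM-B libraries included.

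*Nasp*, which encodes an H3 chaperone that holds free H3 with H4, is not among the 10 genes and was looked at after its values had been seen. It had 359.8, 2815 and 420.3 normalized counts after DOM-B RNAi, against 2573, 2505 and 2603 in CTRL, so it was low in the same replicates 1 and 3. *Dek*, which encodes another chaperone from a list of other chaperones, split the other way, with 4135, 2213 and 4170 normalized counts after DOM-B RNAi, against 4258, 4701 and 4072 in CTRL. On the log2 scale DOM-B replicate 2 differed from the mean of DOM-B replicates 1 and 3 by 1.65 for *asf1*, 2.85 for *Nasp* and -0.91 for *Dek*, and by -0.64 (*BigH1*) to 0.45 (*XNP*) for the other 24 genes tested among the 10 and the list. The log2 fold-change of *Nasp* for DOM-B RNAi against CTRL was -1.31 with an SE of 0.545 (adjusted p = 0.132). The study had more than one double-stranded RNA construct against DOM-B, and the labels do not say which was used in which replicate, so whether the 3 DOM-B libraries shared a construct is not given in the sources used here. The log2 fold-change of *asf1* of -1.17 averages over all 3, and that of -1.78 leaves replicate 2 out. The cause of the split of *asf1*, *Nasp* and *Dek* was not tested.

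*Hira* (FBgn0022786, chromosome X, 7722119 to 7725917, plus strand) encodes the chaperone that deposits H3.3 outside S phase. It had 522, 517 and 458 normalized counts after H2A.V RNAi and 796, 710.5 and 723 after DOM-A RNAi, against 605, 534 and 633 in CTRL. The H2A.V libraries lay below CTRL and the DOM-A libraries above. Against CTRL neither passed the threshold (log2 fold-change -0.24, adjusted p = 0.154, and 0.33, adjusted p = 0.0454). H2A.V RNAi against DOM-A RNAi gave -0.57 (SE 0.118, adjusted p = 0.00151), where the median of all genes was -0.29. This call was made in 6 of 10 alternatives and lost with the TMM factors of the *D. melanogaster* genes (-0.31, adjusted p = 0.0947, range over the alternatives 4.26e-05 to 0.110).

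*Nap1* (FBgn0015268, chromosome 2R, 23905175 to 23907294, minus strand), which encodes a chaperone of H2A with H2B, was not called in any of the 10 comparisons. Its normalized counts were 3507, 3847 and 4277 after H2A.V RNAi and 4773, 5110.4 and 4743 after DOM-B RNAi, against 4329, 4669.5 and 4214 in CTRL. H2A.V RNAi overlapped CTRL and DOM-B RNAi lay above it. The 4 log2 fold-changes against CTRL ranged from -0.19 to 0.15, and the largest of their adjusted p was 0.961. *CG13562* and an antisense RNA lie on the other strand and share 1155 nt of exon with *Nap1*, so the counts rest on the strand setting.

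*Ssrp* (FBgn0010278, chromosome 2R, 23806361 to 23809004, minus strand) and *dre4* (FBgn0002183, chromosome 3L, 1871574 to 1876312, minus strand) encode the subunits SSRP1 and SPT16 of FACT, the chaperone that opens nucleosomes ahead of RNA polymerase II. *Ssrp* had 4964, 5200.2 and 4856 normalized counts after DOM-B RNAi, against 2843, 2644 and 3331 in CTRL, and the groups did not overlap. The log2 fold-change of 0.80 missed the threshold of 0.01 (SE 0.199, adjusted p = 0.0175) and passed it in 4 of 10 alternatives and without DOM-B replicate 3 (1.00, adjusted p = 0.00644). After DOM-A RNAi *Ssrp* had 3809.7, 3100.5 and 5301 normalized counts, and after TIP60 RNAi 2552, 1658 and 4489. Replicate 3 was the highest library of *Ssrp* in the H2A.V, DOM-A, TIP60 and CTRL groups. TIP60 RNAi was lower than DOM-B RNAi by a log2 difference of -0.89 (adjusted p = 0.00447), a call that was lost without replicate 2 of every group (-0.53, adjusted p = 0.013), without the replicate block (-0.79, adjusted p = 0.0594), and without replicate 1 or 2 of either group, where the adjusted p lay between 0.0211 and 0.0254.

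*dre4* had 7712, 7298 and 6876 normalized counts after DOM-B RNAi and 4964, 5979 and 5250.3 after DOM-A RNAi, against 7465, 6837 and 5827 in CTRL. Both groups overlapped CTRL. Its log2 fold-change was 0.12 after DOM-B RNAi, -0.31 after DOM-A RNAi and -0.28 after TIP60 RNAi, with adjusted p = 0.572, 0.0717 and 0.122. The *Ssrp* to *dre4* ratio was 0.644, 0.713 and 0.706 after DOM-B RNAi, against 0.381, 0.387 and 0.572 in CTRL, all above CTRL. The log2 difference was 0.65 in the exact permutation test (p = 0.1, adjusted p = 0.2). It was 0.49 after H2A.V RNAi, 0.75 after DOM-A RNAi and 0.15 after TIP60 RNAi, where the libraries overlapped CTRL (exact permutation p = 0.3, 0.2 and 0.7, adjusted p = 0.4, 0.32 and 0.7). Taken within replicates 1, 2 and 3, the log2 difference was 0.55, 0.46 and 0.47 after H2A.V RNAi, 1.01, 0.42 and 0.82 after DOM-A RNAi, and 0.76, 0.88 and 0.30 after DOM-B RNAi, higher in 3 of 3 replicates each. It was 0.27, -0.20 and 0.38 after TIP60 RNAi, higher in 2 of 3. The exact sign-flip test gave p = 0.25, 0.25, 0.25 and 0.5 in that order, where 0.25 is the smallest that 3 pairs allow, and adjusted p = 0.286, 0.286, 0.286 and 0.5 over the 8 tests.

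*Spt6* (FBgn0028982, chromosome X, 6267797 to 6274984, plus strand) encodes a chaperone that travels with elongating RNA polymerase II. It had 1143, 959 and 1169 normalized counts after H2A.V RNAi, against 1582, 1505 and 1534 in CTRL, and the groups did not overlap. The log2 fold-change of -0.50 missed the threshold (SE 0.145, adjusted p = 0.0229) and was -0.28 relative to the median of all genes. It passed in 2 of 10 alternatives. After DOM-A RNAi *Spt6* had 1509.9, 2038 and 1324 normalized counts. H2A.V RNAi against DOM-A RNAi gave -0.57 (adjusted p = 0.00627), which was lost without replicate 2 of every group (-0.29, adjusted p = 0.0575) and without replicate 1 or 2 of either group, where the adjusted p lay between 0.0109 and 0.0418. In that comparison 4 of the 10 genes were called, *His3.3A* and *His4r* higher and *Hira* and *Spt6* lower, against 29.5% of all genes, 7.66% higher and 21.9% lower. In H2A.V RNAi against TIP60 RNAi *His3.3A* and *His4r* were called, both higher, which is 2 of 10 against 22.8% of all genes, 6.14% higher.

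*BigH1* (FBgn0038252, chromosome 3R, 14663450 to 14664822, plus strand) encodes the linker histone H1 variant of early embryos and germ cells. It had 13, 8 and 12 reads after DOM-B RNAi, against 1, 1 and 4 in CTRL. The ratio of summed reads, each sum divided by the summed library factors of its group, was 5.16. Its exact 95% interval of 2.14 to 15.1 covers counting error only. The edgeR test gave an adjusted p = 0.0379. It had 4, 3 and 3 reads after H2A.V RNAi and 0, 7 and 3 after DOM-A RNAi, with ratios of 1.28 (0.423 to 4.30) and 1.76 (0.581 to 5.91). Germline genes moved with DOM-B RNAi: of 6, *nanos*, *vas* and *piwi* were higher, with log2 fold-changes of 1.79, 4.36 and 2.53, and *aub* was lower (-1.27), against 2.74% higher and 2.33% lower of all genes. The same 4 genes were called in the same directions after H2A.V RNAi, at 2.36, 3.22, 2.93 and -1.85, where *BigH1* had 10 reads in all, against 6 in CTRL. Their part in the reads of *BigH1* was not tested. The summed normalized count of the 6 genes was 3432 to 5425 after DOM-B RNAi, against 4141 to 4980.0 in CTRL.

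After DOM-B RNAi none of the 10 genes was called by edgeR at 0.01, against 5.07% of all genes. At an unadjusted p under 0.05 there were 3, *asf1*, *Ssrp* and *BigH1*, against 28% of all genes, and DESeq2 called 2, *asf1* lower and *Ssrp* higher, against 10% of all genes. In H2A.V RNAi against DOM-B RNAi none was called by edgeR, against 11% of all genes, 7 had an unadjusted p under 0.05, against 37.3%, and DESeq2 called 2, *His3.3A* and *Spt6*, both lower, against 18.8%. The 2 called by DESeq2 were near the background share, whereas the 7 with an unadjusted p under 0.05 were above theirs. The 10 genes had a median log2 difference of -0.34 in this comparison, against -0.30 for all genes. In DOM-A RNAi against DOM-B RNAi 2 of 10 were called, both lower, against 17.4% of all genes, 10.1% lower. In TIP60 RNAi against DOM-B RNAi it was 3 of 10, *His3.3A*, *His4r* and *Ssrp*, all lower, against 16.4%, 10.6% lower.

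Of 19 other chaperone genes in a list, 17 passed the filter on low counts. After DOM-A RNAi 0 were higher and 4 lower, namely *Nph*, *Caf1-105*, *yem* and *cal1*, against 8.96% higher and 10.4% lower of all genes. The largest 3 changes were -0.84 for *Nph*, a nucleoplasmin family gene, -0.70 for *Caf1-105*, a subunit of the replication-coupled CAF-1 complex, and -0.66 for *yem*, the partner of HIRA in H3.3 deposition. After TIP60 RNAi 5 were lower, with *Caf1-105* at -0.85, *yem* at -0.77 and *Nph* at -0.73, and 1 was higher, *YL-1*, at 0.43, against 8.43% lower and 4.88% higher of all genes. The median over the 17 was -0.34 after DOM-A RNAi, against 0.03 for all genes, and -0.41 after TIP60 RNAi, against -0.04.

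*YL-1*, which encodes the subunit that binds H2A.V with H2B in the exchange complex, had 337, 313 and 318 normalized counts after H2A.V RNAi, against 528, 527 and 558 in CTRL. It fell by 0.74 on the log2 scale (adjusted p = 3.07e-04), and *Mapmodulin* fell by 0.62 (adjusted p = 0.00873). No other of the 17 genes was called after H2A.V RNAi, where 11.5% of all genes were lower, and their median was -0.23. After DOM-B RNAi none of the 17 was called by edgeR, 6 had an unadjusted p under 0.05, against 28% of all genes, and DESeq2 called 1, *yem*, against 10%. Of 111 replicative histone genes, 2 passed the filter and neither was called, and the summed normalized count of all 111 was 21.1 to 48.3 per library. Reads with several matches had been removed and poly(A) RNA selected, so a rise of the replicative histones was not measurable here.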

How the data were processed

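Kc167 cells were sequenced as poly(A) RNA in 15 libraries, 3 per RNAi group. The authors aligned single reads with STAR 2.5.3a to *D. melanogaster* (dm6) and, separately, *D. virilis*, discarded reads with several matches, and deposited raw read counts per gene in 3 strand settings. The transcribed-strand counts were used here. Gene names, positions and exon lengths came from a newer Ensembl annotation of the same assembly, in which 17343 of 17481 gene IDs had a name. Levels per kb rest on that annotation.

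Genes with at least 1 read in 6 libraries were kept. Size factors were the median of ratios over 8941 *D. virilis* genes. edgeR 4.0.16 (R 4.3.3) was fitted to all 15 libraries and 11424 genes with terms for RNAi group and replicate number. Its quasi-likelihood test, Benjamini-Hochberg adjustment over all genes and a threshold of 0.01 gave the calls. DESeq2 1.42.0 was an alternative. The 95% intervals come from the same fit. Ratios within a library were compared by a two-sided exact permutation test (SciPy 1.17.1). The edgeR step was checked on simulated counts, and no result of that check is given or relied on here. The labels do not say whether replicates were separate cultures.

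The genes to report were the 10 genes, the RNAi targets, and from each gene list at most 3 called genes per direction with the largest change. *Nasp* and *Dek* were added after their values had been seen, and so were the comparisons of DOM-A with DOM-B, TIP60 with DOM-B and DOM-A with TIP60 RNAi. Genes named only as the ends of a range, such as *XNP*, are outside this rule. The 10 genes and the lists were chosen with earlier results of these data known.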

Additional observations from a re-analysis of the deposited data

How the results depend on the processing

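The fall of *His3.3A* and *His4r* after DOM-A and TIP60 RNAi passed the threshold in every alternative run. The number of the 10 genes called after H2A.V RNAi against CTRL, 1 in the fit reported, was 0 with TMM or median-of-ratios factors of *D. melanogaster*, TMM or total counts of *D. virilis*, unstranded counts, no filter on low counts or no replicate block, and 2 with DESeq2, with only the groups compared or at a threshold of 0.05. The share of all genes called, 12.7% as reported, was 5.23% (total *D. virilis* counts) to 12.4% in the settings with 0, and 19.5%, 19.9% and 24.9% in those with 2. After DOM-B RNAi, 0 as reported, it was 1 with the *D. melanogaster* factors or total *D. virilis* counts, 2 with no filter, DESeq2 or only the groups compared, and 3 at 0.05, with 7.05%, 6.43% and 6.02% of all genes called in the settings with 1, 5.28%, 10% and 14.5% in those with 2, and 13% at 0.05. It was 2 in place of 4 for H2A.V against DOM-A RNAi with only the groups compared (16% of all genes), 2 (DESeq2, 18.8%) and 4 (0.05, 25.1%) in place of 0 for H2A.V against DOM-B RNAi, and 5 (total *D. virilis* counts, 21.1%) and 4 (0.05, 35.4%) in place of 2 for H2A.V against TIP60 RNAi. With total *D. virilis* counts it was 4 in place of 2 for DOM-A against DOM-B RNAi (22.5%) and 5 in place of 3 for TIP60 against DOM-B RNAi (26.7%). The cause was not tested.

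Leaving out libraries gave 0 to 1 calls for H2A.V, 2 to 4 for DOM-A, 0 to 2 for DOM-B and 2 to 3 for TIP60 RNAi against CTRL, 3 to 4, 0 to 2 and 2 to 3 for H2A.V against DOM-A, DOM-B and TIP60 RNAi, 2 to 4 for DOM-A and 2 to 3 for TIP60 against DOM-B RNAi, and 0 to 0 for DOM-A against TIP60 RNAi. These fits included that without replicate 2 of every group. In that fit 16%, 26.7%, 12.6% and 19.3% of all genes were called against CTRL, in the same order. The share was 32%, 12.7% and 28.1% for H2A.V against DOM-A, DOM-B and TIP60 RNAi. It was 25.5% for DOM-A and 21.9% for TIP60 against DOM-B RNAi, and 1.02% for DOM-A against TIP60 RNAi. Shares for the fits without a single library are not given here. With a library left out, the log2 *His3.3B* to *His3.3A* difference ranged from 0.34 to 0.52 (H2A.V), 1.04 to 1.27 (DOM-A), -0.00955 to 0.17 (DOM-B) and 1.17 to 1.34 (TIP60), and that of *Ssrp* to *dre4* from 0.31 to 0.69, 0.53 to 1.01, 0.55 to 0.84 and -0.16 to 0.41 in the same order.

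The replicate block followed the study's methods. Libraries with the same number deviated together only in part, with 24 of 30 correlations over 0.1 (mean 0.219). Without the replicate block 0 of the 10 genes were called after H2A.V, 2 after DOM-A, 0 after DOM-B and 2 after TIP60 RNAi. Among all genes 7.98%, 12.4%, 1.78% and 8.09% were called in that fit, in the same order. With the replicate block as within-replicate differences, the log2 *His3.3B* to *His3.3A* values were again 0.44, 1.17, 0.08 and 1.26, with an exact sign-flip p of 0.25, the smallest that 3 pairs allow.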
